A study of Mus musculus with 59 samples.

Results

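The diaphragm of mice that carried a cachectic melanoma was compared with that of mice that carried a non-cachectic melanoma, all of them treated with recombinant Fibcd1 (rFibcd1). The comparison comprised 20 of the 59 libraries of the series, chosen by their labels alone: 10 of cachectic rFibcd1 mice and 10 of non-cachectic rFibcd1 mice. The study gives fewer cachectic mice in its own analysis of the diaphragm than the table holds, and which libraries it left out is not given in the sources used here. All 20 were female NCI Ath/nude mice, 4 months old, which lack a thymus and hence most T cells. Every mouse bore a human melanoma xenograft in the flank and received repeated intraperitoneal injections of rFibcd1 in the last week. The cachectic and the non-cachectic melanoma were each 1 xenograft, so muscle wasting and other differences between these tumors cannot be told apart. A further 10 cachectic mock and 9 non-cachectic mock libraries, from mice of the same kind injected with albumin in place of rFibcd1, served for comparison, and shared no library with the rFibcd1 groups.

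Cachexia is the loss of muscle and fat that accompanies some cancers. Cytokines such as interleukin-6 act on muscle through STAT3, and glucocorticoids act through their nuclear receptor, and both raise the transcription of genes for protein breakdown and for acute-phase proteins, which are otherwise made mostly by the liver. The diaphragm is the main muscle of breathing and is active without rest. Fibcd1 carries a fibrinogen C domain, and the study examined it as a myokine, a protein released by muscle, that sustains myofiber size through ERK signaling. The comparison asks which transcripts still distinguished the cachectic from the non-cachectic diaphragm when both received rFibcd1.

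Transcript abundance is given as TPM, a unit that gives every library the same total, as the share of a gene in all transcripts of a library after correction for transcript length. TPM keeps no sequencing depth, so the depth behind each value is unknown. Of 47643 genes in the table, 13426 reached 1 TPM in at least 9 of the 39 diaphragm libraries and were tested. Differences are between group means of log2(TPM + 1), cachectic minus non-cachectic, with their standard error (SE), from limma, and a gene was called at a Benjamini-Hochberg adjusted p under 0.05 over all genes tested. Libraries are named by the number in their column.

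Libraries stood apart in ways the groups did not explain. Pcna-ps2, a pseudogene, was between 0 and 0.428 TPM in libraries 11 and 14 of the cachectic group and 46, 48, 57 and 58 of the non-cachectic group, and between 9.31 and 22.8 TPM in the other 14. These are called the low and the high state. Library 11 also had the lowest weight of the 20 in a fit that weights libraries by their scatter (0.0778) and the fewest transcripts of red blood cell genes (446 TPM in sum, against 1228 to 8912 TPM in the other 19). The liver markers, which no muscle makes in quantity, summed to between 66.0 and 1960 TPM in the cachectic group, highest in library 3, and to between 35.03 and 854 TPM in the non-cachectic group, highest in library 49. None of 13 liver, 9 adipocyte, 9 mesothelium and 5 red blood cell markers tested was called by limma at the adjusted threshold, where 9.11% of all genes were. Muscle markers were abundant in every library, between 58368 and 115628 TPM in sum, as in the labelled tissue. Macrophage and neutrophil markers are given beside the genes they touch.

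Of the genes tested, 1223 (9.11%) were called: 958 (7.14%) were higher and 265 (1.97%) were lower in the cachectic than in the non-cachectic diaphragm under rFibcd1. Most changes were modest, with a median of 0.42 for the genes called higher and -0.45 for those called lower. A difference beyond 1 was found for 65 of the genes called higher and 14 of those called lower. Over all 13426 genes tested, called or not, 9090 had a positive difference. The share of calls that were higher, 78.3%, depended on scaling: it was 45.4% after median-ratio scaling and 34.0% after quantile normalization. Without libraries 11 and 14 of the low state, 3628 genes were called, 93.3% of them higher. Low-state libraries then remain only in the non-cachectic group, so that state and group are mixed in this count. With the 14 high-state libraries of these groups and those of the mock groups, limma called 0 genes, with 1838 at an unadjusted p under 0.05, and a fit of the 2 groups alone called 335. With the library state as a term in the fit of all libraries, 1353 genes were called, 884 higher and 469 lower. Dunn tests over the 4 groups, the test of the study, called 0 after adjustment, with 2512 at an unadjusted p under 0.05. The count was between 733 (without library 5) and 1896 (without library 56) when 1 library was dropped.

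The genes that led the comparison were those of the acute-phase response and of metal binding. Serpina3n, an acute-phase serine protease inhibitor (chr12:104406729-104414329), ranged from 8.13 through a median of 173 to 873 TPM in the cachectic diaphragm and from 5.27 through 12.2 to 20.8 TPM in the non-cachectic one. In 9 of 10 cachectic libraries it lay above every non-cachectic library, and the difference was 3.35 ± 0.65 (SE, adjusted p = 0.00265). Mt2, a metallothionein that binds zinc, ranged from 35.5 through 501 to 1827 TPM and from 14.8 through 32.2 to 66.1 TPM (3.32 ± 0.63, adjusted p = 0.00263). Its neighbor Mt1 reached 1769 TPM in the cachectic group and 112 TPM in the non-cachectic group, and rose by 1.82 ± 0.46 (adjusted p = 0.0114). The zinc exporter Slc30a1 rose as well (0.44 ± 0.12, adjusted p = 0.0163), as the only other of the 9 metallothionein and zinc genes tested to be called. The called share of that list was 33.3%, against 7.14% of all genes called higher.

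Saa1 and Saa2, serum amyloid A proteins of the acute phase, were close to absent in the non-cachectic rFibcd1 group, though not in every non-cachectic mock library, where they reached 67.4 and 20.95 TPM. Their medians in the non-cachectic mock group were 0.42 and 0.31 TPM, and library 64 of that group held 11521.5 TPM of liver markers. Saa1 ranged from 0 through 0.42 to 0.965 TPM in the non-cachectic group and from 1.03 through 11.9 to 77.1 TPM in the cachectic group, so that the groups did not overlap (3.01 ± 0.71, adjusted p = 0.00685). Saa2 ranged from 0 to 0.619 TPM and from 0.367 to 41.3 TPM, with 9 cachectic libraries above every non-cachectic one (2.52 ± 0.68, adjusted p = 0.0166). The genes are near-identical copies, and how the authors assigned reads that fit both is not given in the sources used here, so the split between them is uncertain.

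The bases upstream of these paired genes are shown because each pair lies side by side and both members rose. Sequences are RefSeq promoters of build GRCm38.p6, 5′ to 3′ on the strand of the gene, from 250 bases before the RefSeq start to that start or to the first base of the GENCODE gene, whichever came first. For Mt2 (chr8:94172368-94172617, plus strand) and Mt1 (chr8:94178839-94179081, plus strand), capitals mark TGCNCNC on either strand, the core of the metal response element. For Saa1 (chr7:46742981-46743230, minus strand) and Saa2 (chr7:46751583-46751789, plus strand), capitals mark TTGCNNAA on either strand, a motif of the C/EBP factors.
Mt2: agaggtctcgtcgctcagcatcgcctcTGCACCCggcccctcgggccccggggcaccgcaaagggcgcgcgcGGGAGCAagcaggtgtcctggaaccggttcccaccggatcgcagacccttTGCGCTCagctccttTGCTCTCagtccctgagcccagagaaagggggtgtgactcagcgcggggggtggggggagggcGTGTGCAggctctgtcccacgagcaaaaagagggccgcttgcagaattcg
Mt1: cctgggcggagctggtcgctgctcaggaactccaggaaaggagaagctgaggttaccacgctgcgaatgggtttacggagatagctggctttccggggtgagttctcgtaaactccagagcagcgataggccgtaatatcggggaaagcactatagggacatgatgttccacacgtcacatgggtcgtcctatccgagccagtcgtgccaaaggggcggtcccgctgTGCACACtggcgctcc
Saa1: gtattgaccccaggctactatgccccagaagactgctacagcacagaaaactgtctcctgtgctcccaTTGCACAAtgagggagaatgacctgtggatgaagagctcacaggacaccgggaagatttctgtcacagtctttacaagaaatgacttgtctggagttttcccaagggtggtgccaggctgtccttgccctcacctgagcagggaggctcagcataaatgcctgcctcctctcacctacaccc
Saa2: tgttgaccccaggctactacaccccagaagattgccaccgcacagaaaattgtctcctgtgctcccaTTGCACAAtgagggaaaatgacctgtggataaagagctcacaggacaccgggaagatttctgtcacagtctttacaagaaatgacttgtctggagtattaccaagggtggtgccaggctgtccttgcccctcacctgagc
The Mt2 window held 5 copies of the metal response core and that of Mt1 held 1, and 44.4% of 32851 RefSeq promoters have at least 1 in 250 bases. Bases downstream of the annotated starts were not searched, so the 5 and the 1 do not compare the whole promoters. The genes lie 5513 bases apart, and their windows were 48.3% identical in the stretch that both cover. Saa1 and Saa2 point away from each other with 8809 bases between them, and their windows were 93.8% identical over 208 aligned columns, with 11 mismatches. The C/EBP motif was found once in each, against 9.56% of all promoters. These matches are descriptions of letters and not measured sites.

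**Figure D1:**
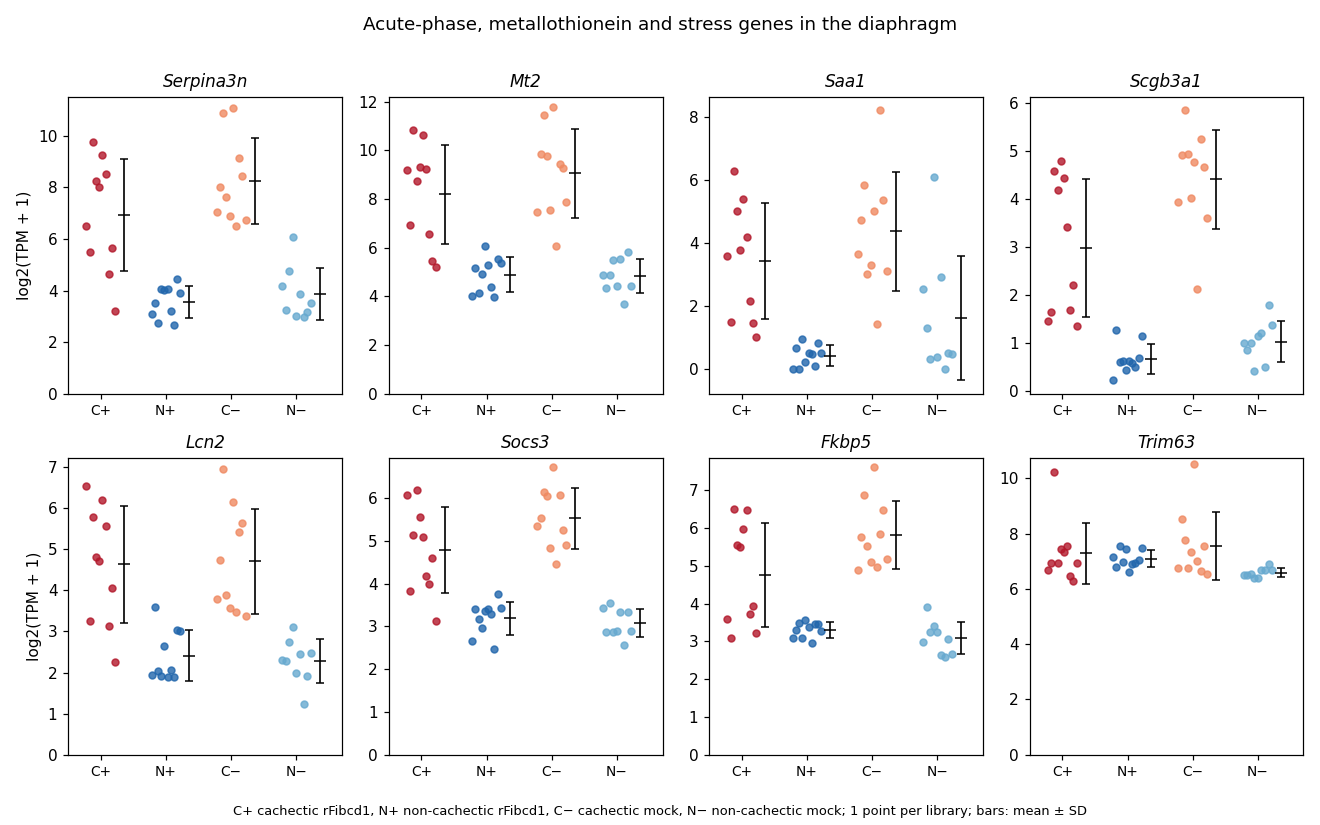
Levels of 8 genes in each library as log2(TPM + 1), by group, with 1 point per library and the group mean ± SD. Serpina3n, Mt2, Saa1 and Scgb3a1 were spread over a wide range in the cachectic rFibcd1 group, and Saa1 and Scgb3a1 did not overlap between the 2 rFibcd1 groups, whereas Trim63 did.

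Other acute-phase genes moved the same way. Of 22 tested, 7 rose (31.8%, against 7.14% of all genes) and 0 fell, all 22 had a positive difference, and the list median was 1.28 against 0.08 over all genes tested. Lcn2, a carrier of iron-binding siderophores, ranged from 3.80 to 92.3 TPM in the cachectic and from 2.69 to 11.2 TPM in the non-cachectic group (2.23 ± 0.45, adjusted p = 0.00295). Itih4 (2.13 ± 0.68), Lrg1 (1.09 ± 0.27) and the lipopolysaccharide-binding protein Lbp (1.01 ± 0.26) completed the 7. Hp, or haptoglobin, ranged from 37.9 to 990 TPM and from 6.14 to 338 TPM, and was not called (2.00 ± 0.72, adjusted p = 0.0702). Many of these genes are also made by the liver, of whose 13 markers 10 were positive with a median of 0.53. The part of liver transcripts in these values was not tested. Without libraries 3 and 49, each with the most liver transcripts of its group (library 4 of the cachectic group, with 1014 TPM, was kept), 5 of the 22 were called higher, against 4.35% of all genes, and the list median was 1.09.

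Of 14 genes of interleukin-6 family signaling and STAT3, 6 rose (42.9%, against 7.14% of all genes), 0 fell and all 14 were positive (median 0.45). Socs3, the feedback inhibitor induced by STAT3, ranged from 7.77 through 28.3 to 72.0 TPM and from 4.53 through 9.04 to 12.5 TPM, with 9 cachectic libraries above all non-cachectic ones (1.59 ± 0.29, adjusted p = 0.00263). The oncostatin M receptor Osmr showed the same separation in 9 libraries (0.88 ± 0.17, adjusted p = 0.00263). Stat3 itself rose by 0.66 ± 0.14, the transcription factor Cebpd by 1.28 ± 0.29, the interleukin-4 receptor Il4ra by 0.98 ± 0.24 and the NF-kappaB cofactor Bcl3 by 0.75 ± 0.24. Among 25 TWEAK and NF-kappaB genes, 3 rose and 1, the mitochondrial superoxide dismutase Sod2, fell by 0.42 ± 0.11, which is 16% against 9.11% of all genes.

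Of 23 glucocorticoid-responsive genes tested, 4 rose (Mt2, Fkbp5, Cebpd and Glul) and 0 fell, with a median of 0.22, a share of 17.4% against 7.14% of all genes. Fkbp5, which encodes a chaperone of the glucocorticoid receptor, ranged from 7.44 through 29.2 to 90.5 TPM and from 6.71 through 9.08 to 10.8 TPM, and in 8 cachectic libraries it exceeded all non-cachectic ones (1.46 ± 0.37, adjusted p = 0.0116). Glul, or glutamine synthetase, rose by 1.09 ± 0.24 (adjusted p = 0.00452). With mock injections 16 of the same 23 genes were called higher, with a median of 0.86, where 30.9% of all genes were called higher and their median was 0.20. The difference between these contrasts was not called for any of the 23.

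The ubiquitin ligases that are classical markers of muscle atrophy did not separate the groups. Fbxo32 (atrogin-1) ranged from 52.5 through 95.8 to 660 TPM in the cachectic and from 94.3 through 136 to 163 TPM in the non-cachectic group (-0.24 ± 0.32, adjusted p = 0.682). Trim63 (MuRF1) ranged from 77.4 through 122 to 1209 TPM and from 96.5 through 128 to 187 TPM (0.19 ± 0.37, adjusted p = 0.791). Library 3 alone held both maxima, and without it Trim63 stood at -0.14. Of 23 atrophy ligases and adaptors, 1 rose (the translation repressor Eif4ebp1, 0.90 ± 0.29, a call lost without any 1 of 12 libraries) and 1 fell (Asb2, -0.88 ± 0.17, adjusted p = 0.0028), a share of 8.70% that is close to the 9.11% of all genes. Asb2, a ligase subunit that marks desmin and filamins for breakdown, lay below all non-cachectic libraries in 8 of 10 cachectic ones, from 75.8 to 200 TPM against 158 to 295 TPM.

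The 8 genes that the study named for its melanoma model showed 1 call, which was higher (12.5%, against 7.14% of all genes called higher). Since they were chosen on libraries of this series, their direction is not independent evidence. Scgb3a1, a small secreted protein (chr11:49663610-49665118), ranged from 1.56 through 6.65 to 26.6 TPM and from 0.169 through 0.528 to 1.40 TPM without overlap (2.31 ± 0.40, adjusted p = 0.00179). The stress-induced mTORC1 inhibitor Ddit4 (0.84 ± 0.32, adjusted p = 0.0909) and Arrdc2 (1.02 ± 0.48, adjusted p = 0.176) were not called. Zbtb16 (0.22 ± 0.28), Klhl38 (-0.29 ± 0.25), Klf15 (-0.04 ± 0.24), Capza1 (-0.07 ± 0.24) and the slow troponin Tnni1 (0.07 ± 0.13) were closer to 0. With mock, 5 of the 8 were called higher and 1 lower, where 30.9% of all genes were called higher and 2.67% lower. Ddit4 was among those higher (2.17 ± 0.33). The difference between the contrasts was called for none of the 8, and for Ddit4 it was -1.33 ± 0.46 (adjusted p = 0.507).

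Transcripts of ribosomes and proteasomes were higher as groups. Of 75 cytosolic ribosomal protein genes, 69 rose and 0 fell, a share of 92.0%, with a median of 0.56. Rpl3 (0.81 ± 0.19), Rps14 (0.74 ± 0.15) and Rpl13a (0.63 ± 0.14) are examples. Rps14 ranged from 293 through 404 to 690 TPM in the cachectic and from 166 through 284 to 399 TPM in the non-cachectic group. The mean log2(TPM + 1) over the 75 genes was between 7.89 (library 18) and 9.06 (library 11) in cachectic and between 7.55 and 8.26 (library 56) in non-cachectic libraries, so the groups overlapped. After median-ratio scaling, 56 of the 75 were called higher, with a median of 0.48, where 4.27% of all genes were.

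Of 42 proteasome subunits, 29 rose (69.0%, against 7.14% of all genes) and 0 fell, and 41 were positive (median 0.34). Psma7, of the catalytic core, ranged from 53.7 to 140 TPM against 43.8 to 62.4 TPM (0.59 ± 0.14, adjusted p = 0.0068). Psmd4, a ubiquitin receptor of the regulatory particle, rose by 0.57 ± 0.15, and the activator subunit Psme2 by 0.68 ± 0.21. Median-ratio scaling left 6 of the 42 called higher (4.27% of all genes), array weights 13 (6.82%), quantile normalization 10 (4.16%) and a fit of the 2 groups alone 12 (2.13%). Of 39 autophagy and lysosome genes 4 rose and 0 fell, a share of 10.3%, against 7.14% of all genes called higher: Gabarap (0.45 ± 0.10), Ctsb (0.42 ± 0.14), Lamp1 (0.30 ± 0.08) and Gabarapl2. Under quantile normalization 1 of the 39 was called higher and 5 lower.

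Mitochondrial transcripts took a smaller share in cachexia. Genes of the mitochondrial genome made up 37.6 ± 5.62% of TPM in cachectic libraries (SD, n = 10) and 43.9 ± 2.95% in the others (SD, n = 10), a difference of -6.28 percentage points (p = 0.0073, two-sided permutation test with 100000 resamples). In the high state alone the difference was -4.20 points (exact permutation p = 0.0756, 8 against 6 libraries). All 13 mitochondrial protein-coding genes had a negative difference and 5 were called lower (38.5%, against 1.97% of all genes): mt-Nd1, mt-Nd2 (-0.37 ± 0.10), mt-Nd3 (-0.28 ± 0.08), mt-Cytb and mt-Atp6. Between 1 (without library 58) and 9 (without library 2, 14 or 56) of them were called lower when single libraries were left out. Of 78 nuclear genes of oxidative phosphorylation, 4 fell (5.13%, against 1.97% of all genes) and 0 rose, but 0 were called without library 4 or 5 and 13 lower and 1 higher without library 18. Cox7a1 led them, which encodes a muscle subunit of cytochrome oxidase (-0.44 ± 0.12, adjusted p = 0.0194). Myoglobin, encoded by Mb, ranged from 4692 through 7367 to 14563 TPM against 11074 through 13441 to 14698 TPM, with 6 cachectic libraries below all non-cachectic ones (-0.74 ± 0.16, adjusted p = 0.00357).

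**Figure D2:**
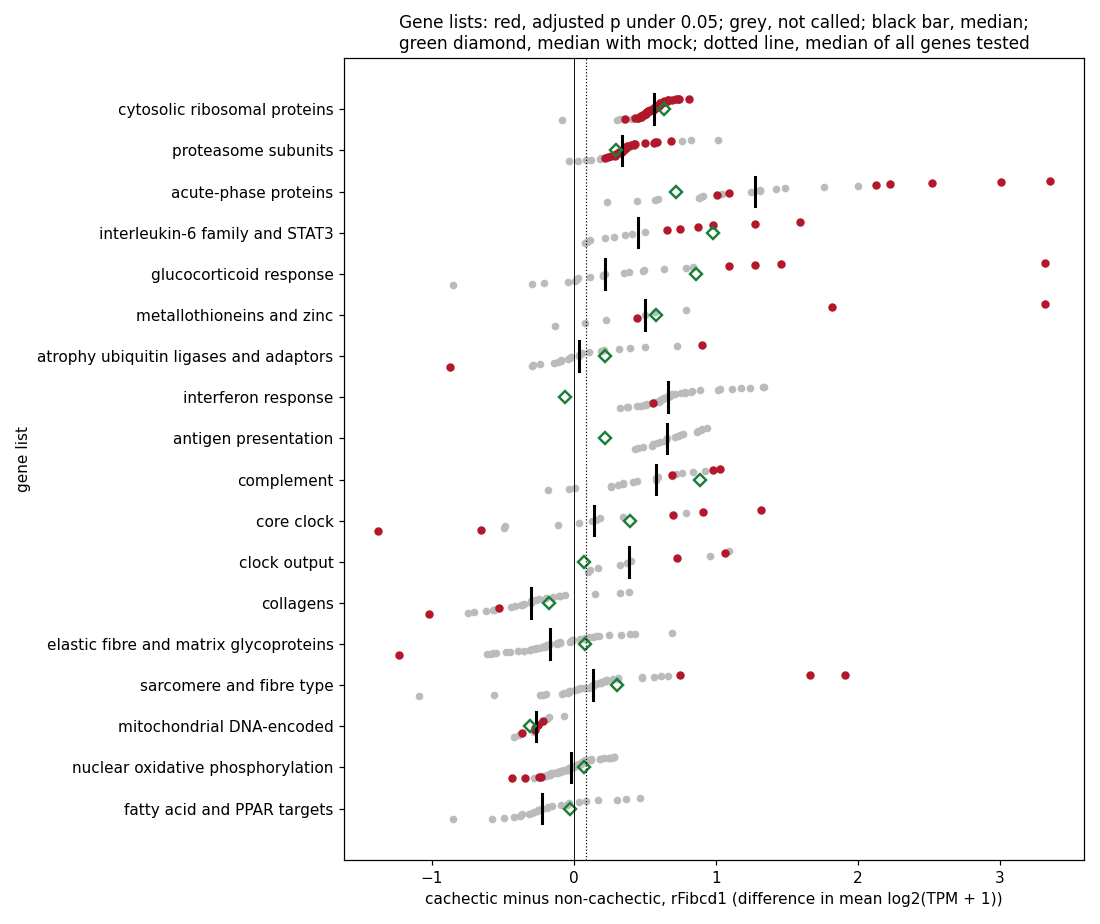
Differences in mean log2(TPM + 1), cachectic minus non-cachectic under rFibcd1, for each tested gene of 18 lists, with called genes in red, the list median as a black bar and the median with mock as a green diamond. The ribosomal protein list lies to the right of the median of all genes (0.08, dotted), and the interferon list lies on the positive side with 1 red point.

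Interferon-response genes were positive throughout. Every one of 39 genes tested had a positive difference (median 0.66), where 9090 of all 13426 genes tested did. Of the 39, 1, the RNase Isg20, was called (0.56 ± 0.17, adjusted p = 0.0377), a call that was lost without any 1 of 9 libraries. Isg15, a ubiquitin-like interferon product, ranged from 2.87 through 21.9 to 148 TPM in the cachectic and from 5.00 through 11.1 to 28.0 TPM in the non-cachectic group (0.89 ± 0.40, adjusted p = 0.153). The mean level of the 39 genes followed the state of the library, from 2.08 to 2.56 in the 6 low-state libraries of both groups and from 3.06 to 6.25 in the 14 high-state ones. Without libraries 11 and 14, the low-state libraries of the cachectic group, 35 of the 39 were called higher and the median was 1.05, where 25.1% of all genes were called higher with a median of 0.17, but low-state libraries then remain only in the non-cachectic group, which by itself raises a list that follows state. With state as a term in the fit, 1 was called and the median was 0.49. With mock the median was -0.06, with 2 called higher and 1 lower. The difference between the contrasts was called for none of the 39, also for Ifit3 (1.93 ± 0.60, adjusted p = 0.483).

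Antigen presentation genes were positive in 19 of 19 cases (median 0.65) and 0 called by limma at the adjusted threshold. Their mean level followed state too, from 3.78 to 4.30 in the 6 low-state and from 4.95 to 7.85 in the 14 high-state libraries, and with state as a term 0 were called and the median was 0.37. B2m, the light chain of class I molecules, ranged from 301 to 3644 TPM and from 279 to 2161 TPM (0.77 ± 0.39, adjusted p = 0.216). Chemokines included the monocyte attractants Ccl8 and Ccl12, neighbors on chromosome 11. Ccl8 ranged from 3.42 through 62.1 to 342 TPM and from 0.774 through 11.7 to 67.7 TPM, with 4 cachectic libraries above all others (2.37 ± 0.63, adjusted p = 0.0148), and Ccl12 rose by 1.81 ± 0.45 (adjusted p = 0.00951). Cxcl14 (0.95 ± 0.26) and Il33 were the other 2 of 27 called (14.8%, against 7.14% of all genes called higher). Of 21 complement genes 3 rose, or 14.3% where 7.14% of all genes did (C1qb, 1.03 ± 0.32; C1qc, 0.98 ± 0.32; and Serping1) and 0 fell. C1qb and C1qc are also 2 of the 11 macrophage markers, none of the other 9 of which was called. All 11 were positive with a median of 0.69, and their sum ranged from 360 through 1310 to 3930 TPM and from 352 through 777 to 1883 TPM. All 4 neutrophil markers tested were positive too (median 0.98), with sums of 13.3 to 455 TPM and 5.96 to 186 TPM. The part of either cell type in these values was not tested. In bulk tissue more macrophages and more RNA per macrophage cannot be told apart. Chil3, a chitinase-like protein of macrophages, rose by 1.94 ± 0.62 (adjusted p = 0.0406), and the interferon-inducible Ifitm1 by 1.62 ± 0.32 (adjusted p = 0.0028).

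Genes of the sarcomere were called higher about as often as genes at large, 6.38% against 7.14%. Ankrd2, a titin-binding repeat protein of slow fibers, ranged from 62.7 through 657 to 2548 TPM and from 57.5 through 113 to 193 TPM, with 6 cachectic libraries above all non-cachectic ones (1.91 ± 0.53, adjusted p = 0.0188). Its relative Ankrd1 ranged from 4.92 through 14.9 to 1003 TPM and from 2.09 through 7.76 to 22.99 TPM (1.66 ± 0.53, adjusted p = 0.0412). The maximum was that of library 1, the next highest library held 81.3 TPM, and without library 1 the gene was no longer called. The embryonic and atrial light chain Myl4 rose by 0.75 ± 0.20, which made 3 higher and 0 lower of 47 sarcomere genes. Among 21 genes of the neuromuscular junction and of denervation, 2 rose and 1 fell, 14.3% against 9.11% of all genes: the acetylcholine receptor subunit Chrnb1 rose by 0.53 ± 0.17, Sln, which encodes the calcium pump inhibitor sarcolipin, rose by 0.49 ± 0.16 (adjusted p = 0.0444), and Colq, which anchors acetylcholinesterase, fell by 0.63 ± 0.17. The calls of Chrnb1 and Sln were lost after median-ratio scaling (adjusted p = 0.0932 and 0.156) and without any 1 of 13 and 12 libraries. Apod, a lipid carrier, ranged from 22.9 through 86.8 to 228 TPM and from 13.6 through 21.9 to 25.7 TPM (1.85 ± 0.36, adjusted p = 0.0028).

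In growth signaling, the BMP antagonist Nog ranged from 5.24 to 24.1 TPM against 3.702 to 8.45 TPM and rose by 1.01 ± 0.21 (adjusted p = 0.00295). Tgfbr2 (0.42 ± 0.14) and Smad1 were the other 2 of 27 genes of the myostatin, activin and BMP list to be called higher, with 0 lower, a share of 11.1% against 7.14% of all genes called higher. Of 31 insulin, IGF1 and FoxO genes, 1 rose (Pik3r1), or 3.23%, below that 7.14%. For amino acids and polyamines, 5 of 32 rose (15.6%, against 7.14% of all genes), and Odc1, the first enzyme of polyamine synthesis, did so without overlap, from 49.7 to 117 TPM against 29.7 to 48.9 TPM (0.67 ± 0.15, adjusted p = 0.00561). Of the ERK feedback and immediate-early genes, the pathway the study connects with Fibcd1, 4 of 28 rose (14.3%, against 7.14% of all genes), and 10 of the 28 were called higher with mock, where 30.9% of all genes were. The 4 were Junb (1.09 ± 0.25), Ier3 (1.06 ± 0.20), Myc (0.98 ± 0.24) and Ier5. Fibcd1 itself stood at 0 to 0.0117 TPM in these libraries and was not tested. Itga2b, a candidate receptor, was not called (0.50 ± 0.22, adjusted p = 0.133), and of 22 integrin genes 1 rose (4.55%), the laminin receptor subunit Itga7 (0.42 ± 0.13).

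The glucose transporter Slc2a1 rose by 0.67 ± 0.18 and Pygm, the muscle glycogen phosphorylase, fell by 0.36 ± 0.10, as 2 of 23 sugar metabolism genes tested (8.70%, close to the 9.11% of all genes). Haem oxygenase Hmox1 rose by 0.89 ± 0.22, ferritin heavy chain Fth1 by 0.32 ± 0.11 and the peroxiredoxin Prdx1 by 0.20 ± 0.07. By list, 2 of 21 antioxidant genes rose and Sod2 fell (14.3%), and 2 of 15 iron and haem genes rose and Mb fell (20%), against 9.11% of all genes. Hmox1 is counted in both lists. Of 27 fatty acid genes 0 were called by limma and 6 were positive (median -0.23), and of 24 genes of the integrated stress and unfolded protein response 0 were called. The median of the latter was 0.09, close to that of all genes, and 10 of them were called higher with mock, against 30.9% of all genes.

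The genes lowest in the cachectic diaphragm were of several kinds. Arntl (BMAL1), the activator of the circadian clock (chr7:113207465-113314126), had the lowest difference among the called genes with a mean of at least 5 TPM (-1.38 ± 0.42, adjusted p = 0.0321), followed by Lgr6, a receptor for R-spondins. Lgr6 ranged from 0.813 through 3.48 to 12.03 TPM in the cachectic and from 7.47 through 11.2 to 13.2 TPM in the non-cachectic group, with 8 cachectic libraries below all non-cachectic ones (-1.32 ± 0.28, adjusted p = 0.00346). The neuronal regeneration protein Nrep ranged from 6.31 through 48.6 to 99.4 TPM and from 58.9 through 85.0 to 116 TPM (-1.30 ± 0.37, adjusted p = 0.0248). Slc41a3, a transporter of the magnesium carrier family, ranged from 10.4 through 30.8 to 63.4 TPM and from 51.7 through 67.9 to 79.4 TPM (-1.23 ± 0.26, adjusted p = 0.00373).

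Some matrix transcripts were among them. Mfap4, a microfibril protein, ranged from 3.36 to 94.6 TPM in the cachectic and from 35.4 to 79.4 TPM in the non-cachectic group (-1.23 ± 0.38, adjusted p = 0.0335), as the only called member of 45 elastic fiber and matrix glycoprotein genes (2.22%, close to the 1.97% of all genes called lower). The cartilage and tendon protein Chad fell by 1.17 ± 0.35 (adjusted p = 0.031). Collagen XV, of the basement membrane and encoded by Col15a1, ranged from 5.53 through 29.1 to 52.0 TPM and from 40.8 through 46.9 to 53.5 TPM (-1.02 ± 0.31, adjusted p = 0.0318). Of 27 collagens tested, 2 fell (Col15a1 and Col11a2), 0 rose and 24 were negative (median -0.30). The called share was 7.41%, against 1.97% of all genes called lower and 9.11% called in either direction. The mean level of the collagens was lowest in library 11 (2.43), and without libraries 11 and 14 the median was 0.02 against 0.17 over all genes. That setting leaves low-state libraries only in the non-cachectic group. Col1a1, of the main fibrillar collagen, was not called (-0.44 ± 0.37, adjusted p = 0.482). Of 33 matrix proteases and inhibitors, Adamts1 rose (0.79 ± 0.18) and the membrane-bound Mmp15 fell (-0.88 ± 0.18), or 6.06%, below the 9.11% of all genes. The remaining lowest genes were Dusp18, a phosphatase (-1.15 ± 0.28), Tecrl (-1.14 ± 0.24), cytidine deaminase Cda (-1.01 ± 0.27), the kinase Sbk2 (-1.01 ± 0.24), Pcp4l1 (-1.003 ± 0.25), Smtnl2 (-0.98 ± 0.21), the insulin receptor adaptor Grb14 (-0.95 ± 0.20) and Magix (-0.95 ± 0.21). Each was lower than every non-cachectic library in 4 to 8 of the 10 cachectic libraries. Hsph1, a chaperone, and Kdr, the endothelial VEGF receptor, fell by 0.59 ± 0.18 and by 0.51 ± 0.15.

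**Figure D3:**
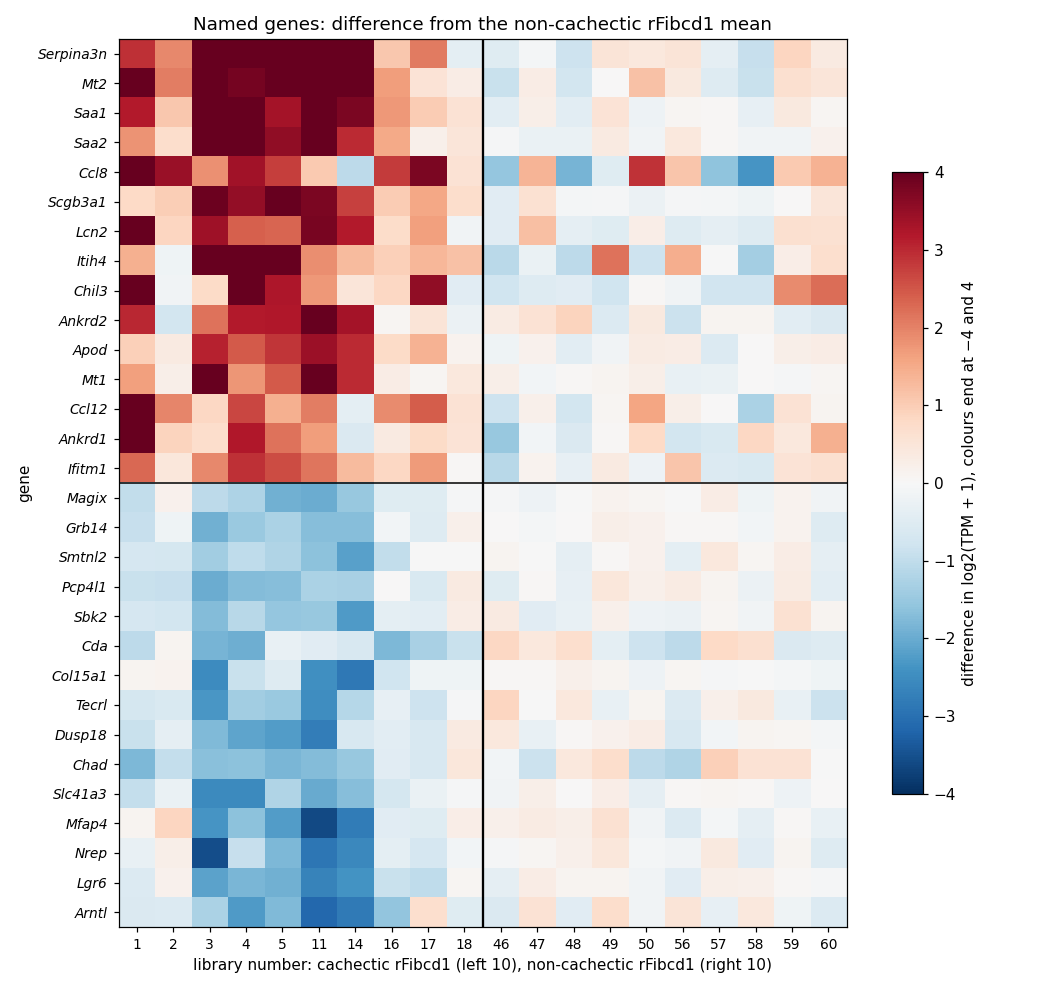
Difference in log2(TPM + 1) from the non-cachectic rFibcd1 mean for the 15 highest and 15 lowest called genes with a mean of at least 5 TPM (rows) in the 20 rFibcd1 libraries (columns, by library number). Red is higher and blue is lower, and in the cachectic group libraries 3, 4, 5, 11 and 14 have the deepest colors and library 18 is close to white for most genes.

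The cachectic libraries were far from uniform, as the map of named genes by library shows. Serpina3n stood at 258 to 873 TPM in libraries 3, 4, 5, 11 and 14, at 88.9 TPM in library 1, at 23.8 to 48.9 TPM in libraries 2, 16 and 17, and at 8.13 TPM in library 18, within the non-cachectic range. Mt2 was 35.5 TPM in library 18 and 42.3 TPM in library 17, both below the non-cachectic maximum of 66.1 TPM. Among the genes lower in cachexia, Nrep was 78.3 TPM in library 18 and 6.31 TPM in library 3. The call of 8 of these 30 genes was lost when some single library was left out, which held for Itih4 and Chil3 with 11 libraries each, Mfap4 with 10, Chad with 9, Ankrd1 with 8, Arntl with 7, Col15a1 with 6 and Nrep with 2. No measure of tumor size or body weight for single mice was used here, so the place of each library in the range was not related to the degree of wasting.

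Apart from Saa1, Scgb3a1 and Odc1, the groups failed to overlap for Tspan4, Zfp641, Rtca and Psmd6, in all 7 genes (0.0521%), each higher in cachexia. None was lower without overlap (0%). Tspan4, a tetraspanin, ranged from 17.6 through 31.7 to 54.0 TPM against 9.03 through 14.52 to 16.7 TPM and had the lowest adjusted p of the genes named here (1.06 ± 0.17, adjusted p = 0.000642). Rtca, an RNA cyclase, had a small and narrow difference, from 19.2 to 27.0 TPM against 14.8 to 18.5 TPM (0.36 ± 0.07, adjusted p = 0.0028), as had the zinc-finger gene Zfp641 (0.55 ± 0.11, adjusted p = 0.0029). For the proteasome subunit Psmd6 the groups met at 64.0 TPM (0.34 ± 0.08, adjusted p = 0.00863).

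The clock genes formed a pattern of opposite signs. Of 14 core clock genes 5 were called, 35.7% against 9.11% of all genes. Arntl and its partner-like activator Npas2 (-0.66 ± 0.21) fell, while the repressors Per2 (1.32 ± 0.32, adjusted p = 0.00854), Per3 (0.91 ± 0.28) and Cry2 (0.70 ± 0.19) rose. The output factor Tef rose too (0.72 ± 0.21), and 10 of 10 genes on the output list were positive (median 0.39). The tetraspanin Tspan4 was also on that list, which was chosen with earlier results of these data known. Its rise is therefore not independent evidence on the clock, and its relation to the clock was not tested. After median-ratio scaling Per3 (adjusted p = 0.0520), Cry2 (0.0513) and Tef (0.0601) were not called. Arntl ranged from 1.43 through 7.00 to 32.6 TPM in the cachectic and from 13.3 through 18.1 to 33.5 TPM in the non-cachectic rFibcd1 group, with 7 cachectic libraries below all non-cachectic ones. In the mock groups it ranged from 1.74 through 3.87 to 23.5 TPM (cachectic) and from 1.34 through 2.93 to 14.6 TPM (non-cachectic), so that the non-cachectic rFibcd1 group held the highest median of the 4. Per2 had its lowest median there, at 3.33 TPM, against 9.33 TPM in the cachectic rFibcd1, 20.2 TPM in the cachectic mock and 14.9 TPM in the non-cachectic mock group. The time of day at which each muscle was taken is not given in the sources used here. Arntl was not called without any 1 of libraries 4, 5, 11, 14, 47, 49 and 58.

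**Figure D4:**
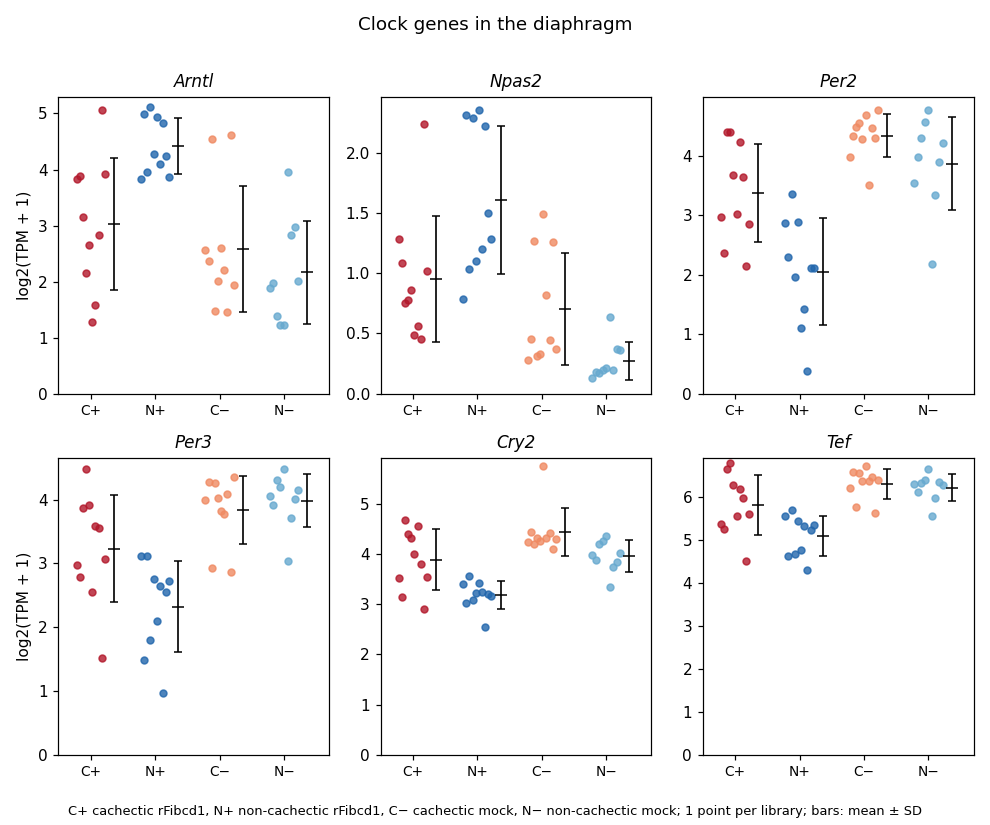
Levels of 6 clock genes in each library as log2(TPM + 1), by group, with 1 point per library and the group mean ± SD. Arntl and Npas2 were lower and Per2, Per3, Cry2 and Tef were higher in the cachectic than in the non-cachectic rFibcd1 group, and the mock groups lay closer to each other for Per3 and Tef.

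The same contrast in the mock groups, from separate libraries, called 4501 genes (33.5%), of which 4143 (30.9% of all genes) were higher and 358 (2.67%) lower, and 81.8% of all genes tested were positive. The direction depended on scaling: of 2170 genes called after median-ratio scaling 996 were higher and 1174 lower. State was uneven between the mock groups, with 1 of 10 cachectic and 6 of 9 non-cachectic libraries in the low state, and 2059 genes were called with state as a term. Of the 958 genes called higher with rFibcd1, 953 were positive and 846 were called higher with mock, which is 88.3% of the former and 20.4% of the genes called higher with mock. Of the 265 called lower, 241 were negative and 132 were called lower with mock, 49.8% of the former and 36.9% of the latter. After median-ratio scaling, 312 of 573 genes called higher with rFibcd1 (54.5%) were called higher with mock, where 7.42% of all genes were, and 396 of 689 called lower (57.5%) were called lower with mock, where 8.74% were. Without scaling, the opposite call was made for 2 genes, Ypel2 and Gm3411. The median over all genes tested was 0.20 with mock and 0.08 with rFibcd1. Of the 1223 genes called with rFibcd1, 712 had a smaller difference with rFibcd1 than with mock, and the genes were chosen on the first of these values. Serpina3n differed by 4.37 ± 0.66 with mock, Mt2 by 4.22 ± 0.65, Socs3 by 2.45 ± 0.30 and Fkbp5 by 2.74 ± 0.38, each more than with rFibcd1. Saa1 (2.76 ± 0.73), Ccl12 (1.07 ± 0.46), Ankrd1 (0.46 ± 0.54) and Tspan4 (0.66 ± 0.17) differed less with mock than with rFibcd1. The interaction was called for none of these 8 genes. Saa1 had a median of 0.42 TPM and a maximum of 67.4 TPM in the non-cachectic mock group. In that group library 64 held the highest mean level of the acute-phase list (6.24, group median 2.85) and 11521.5 TPM of liver markers. The part of liver transcripts in the Saa1 difference with mock was not tested.

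**Figure D5:**
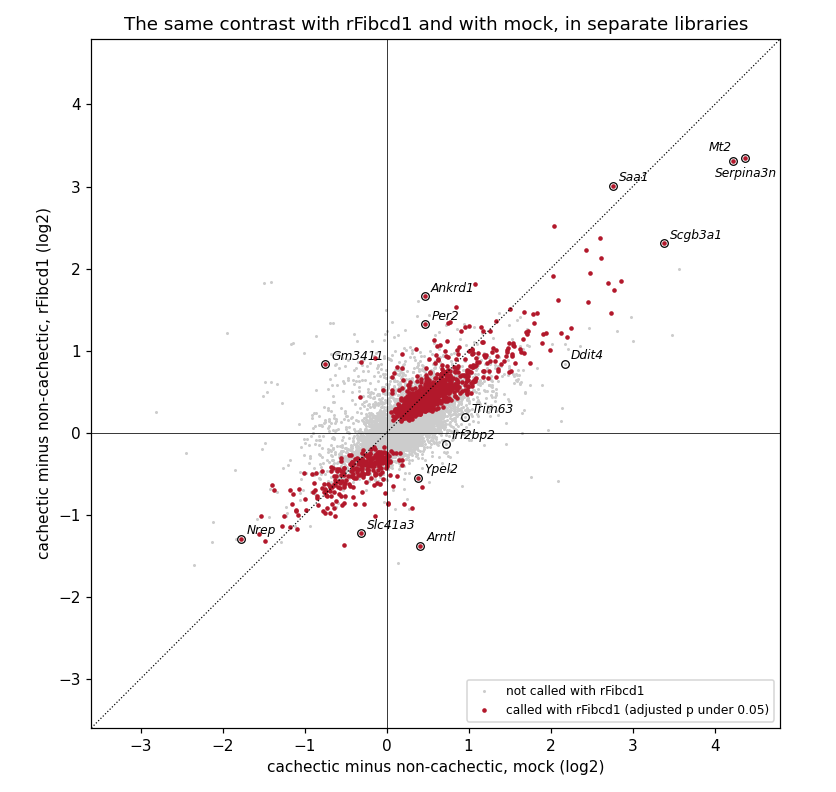
Difference in mean log2(TPM + 1), cachectic minus non-cachectic, with mock (horizontal) and with rFibcd1 (vertical) for 13426 genes, with the genes called under rFibcd1 in red and equality as a dotted line. Serpina3n, Mt2 and Scgb3a1 lie below the line of equality, Arntl is negative with rFibcd1 and at 0.41 with mock, Slc41a3 is at -1.23 with rFibcd1 and -0.32 with mock, and Gm3411 and Ypel2 lie in quadrants of opposite sign.

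The difference between both contrasts was tested as an interaction and called for 3 genes (0.0223%), with 1180 at an unadjusted p under 0.05. Ypel2, a small conserved nuclear protein, was lower in the cachectic group with rFibcd1 (-0.55 ± 0.12, 3.75 to 9.78 TPM against 8.51 to 13.96 TPM) and higher with mock (0.38 ± 0.13, 4.88 to 10.6 TPM against 3.83 to 7.75 TPM), an interaction of -0.93 ± 0.18 (adjusted p = 0.0321). Irf2bp2, a transcriptional corepressor, did not differ detectably with rFibcd1 (-0.13 ± 0.11, adjusted p = 0.449) and rose with mock (0.72 ± 0.11), an interaction of -0.86 ± 0.15 (adjusted p = 0.0272). The predicted gene Gm3411, at no more than 3.17 TPM, was higher with rFibcd1 (0.83 ± 0.21) and lower with mock (-0.75 ± 0.21), an interaction of 1.58 ± 0.30 (adjusted p = 0.0321). With the library state as a term in the fit, limma called 0 interactions, with 795 at an unadjusted p under 0.05. For Arntl the interaction was -1.79 ± 0.60 (adjusted p = 0.507) and for Slc41a3 -0.91 ± 0.38 (adjusted p = 0.548), so that neither difference between contrasts was established.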

How the data were processed

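Muscle RNA was sequenced by the authors, who trimmed and mapped the reads to the mouse genome GRCm38 (mm10) in CLC Genomics Workbench and deposited transcript abundance as TPM for 47643 gene symbols. The annotation they used is not given in the sources used here. Library kit and instrument differ between the labels and the methods of the study, and it stayed unresolved which one holds. Every column has the same sum, so sequencing depth is unknown, and no counting interval was computed. Genes above 0 numbered 17950 to 19456 in the 20 libraries.

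Columns were placed in groups by the words in their names. Their numbers differ between the groups and paired nothing. Per the study's methods, samples came from separate animals. Values were taken as log2(TPM + 1), a scale that understates the change of low genes, and genes with at least 1 TPM in 9 or more of the 39 diaphragm libraries were fitted in limma 3.58.1 (R 4.3.3) with 1 mean per group, a trended prior and two-sided tests. The fit covered all 4 diaphragm groups, which share 1 estimate of the spread. The study itself used Kruskal-Wallis and Dunn tests, tried here as an alternative. The share of mitochondrial transcripts was tested by permutation.

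Genes were named by this rule: the 15 highest and the 15 lowest differences among called genes with a mean of at least 5 TPM over the 20 libraries, then members of 37 gene lists and of the cell type markers, called ones first, and Fibcd1 and Itga2b. Ypel2, Irf2bp2, Gm3411 and the genes that did not overlap were named after their values were seen. The libraries compared, the gene lists, the tests and the alternatives were chosen with earlier results of these data known. Alternatives covered the pseudocount, filters, scaling, array weights, the samples fitted, library state and leaving out each library. The fit was also run on simulated data with known changes, and the outcome is not given here. Gene positions (1-based, GRCm38) were read from GENCODE M21.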

Additional observations from a re-analysis of the deposited data

Results flagged for a closer look

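Genes for which 1 library lay far from the other 9 of its group were sought with Dixon's test on log2(TPM + 1) against its 95% critical value for 10 samples. Of 222 groups examined, 14 passed, and chance flags about 1 in 20. In cachectic rFibcd1 libraries, Ankrd1 was 1003 TPM in library 1 (next 81.3 TPM) and Slc2a1 was 36.6 TPM there, each the highest of its group. Fbxo32 was 660 TPM and Trim63 was 1209 TPM in library 3, against next values of 140 and 188 TPM. In library 11, Fth1 was 7828 TPM and mt-Nd2 was 8120 TPM, the latter the lowest of its group. Npas2 was 3.72 TPM in library 17, the highest. In non-cachectic rFibcd1 libraries, Rpl13a was 756 TPM and Pygm 1093 TPM in library 56, the former the highest and the latter the lowest. Cebpd (17.1 TPM in library 57), Irf2bp2 (28.3 TPM in library 47) and Gm3411 (1.22 TPM in library 46) had a single high library, and Grb14 (14.3 TPM in library 60) and Cry2 (4.85 TPM in library 58) a single low one.

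The effect of the cachectic melanoma differed between rFibcd1 and mock, by an interaction term in limma, for Irf2bp2 (-0.86), Ypel2 (-0.93) and Gm3411 (1.58). The values per group are given with that test above. Gm3411 is a predicted gene at low TPM, and its reads were not examined.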

How the results depend on the processing

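No paired analysis was possible because the mice of the groups differ and their columns share no number. Against 1223 genes called under rFibcd1, an unadjusted limma p under 0.05 with a difference beyond 1 gave 116. The study set these cutoffs for cachectic against non-cachectic, on p-values of its own tests. The fit of the 2 groups alone gave 335 and state as a term 1353. The high-state libraries gave 0 (limma) and Dunn tests 0 (1838 and 2512 at an unadjusted p under 0.05). Without libraries 3 and 49 the count was 717, and without 11 and 14 it was 3628, both chosen after seeing the data. The latter leaves low-state libraries only in the non-cachectic group. Single libraries left out gave 733 to 1896 calls, with counts more than 1.5 times away without library 5 (733), 46 (813), 57 (812), 58 (774) or 56 (1896). The 3 interactions became 53 with the thresholds of the study, 1 without a filter, 150 with array weights, and by limma 0 with state as a term (795 at an unadjusted p under 0.05), 0 in the high state (461), 0 without libraries 3 and 49 (1415) or 11 and 14 (1056), and 0 (without 49 or 56) to 4 without single libraries. The 4501 calls with mock became 2170 (median-ratio scaling), 2297 (quantile normalization), 7341 (array weights), 2059 (state as a term) and 805 (high state). Scaling moved the median of all genes from 0.08 to -0.02 with quantile normalization, and with mock from 0.20 to 0.01 with median-ratio scaling. The mitochondrial difference was -4.20 points in the high state, with an exact permutation p = 0.0756, and -7.26 to -5.42 without single libraries.

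Of 93 called genes that the text names, 64 kept their call without any single library and 29 lost it without at least 1. These were Tgfbr2, Prdx1, Fth1, Chrnb1, Sln, Hsph1, Eif4ebp1, Ctsb, Npas2, Itih4, Chil3, Mfap4, Itga7, C1qc, Psme2, Isg20, Chad, C1qb, Bcl3, Ankrd1, Arntl, Per3, Col15a1, Tef, Nrep, Cox7a1, mt-Nd3, Kdr and Col11a2, from 14 libraries for the first 2 to 1 for the last 3. Median-ratio scaling lost the calls of Eif4ebp1, Psmd6, Psmd4, Gabarap, Lamp1, Per3, Cry2, Tef, Chrnb1, Sln, mt-Nd3, Prdx1, Fth1 and Itga7. None of the 93 reversed under the alternatives run. In the high state and by Dunn tests 0 of the 93 kept their call, and array weights kept 49 and a fit of the 2 groups alone 43 of 91. Some uncalled genes did. Tnni1 was -0.0071 (median-ratio scaling), -0.085 (quantile normalization), -0.031 (array weights), -0.014 (without libraries 4 and 56) and -0.0013 to 0.13 without single libraries. Trim63 was -0.21 (array weights), -0.15 (without libraries 3 and 49) and -0.14 to 0.30 without single libraries. Col1a1 was 0.020 (array weights), 0.12 (high state) and 0.054 (without libraries 11 and 14). Capza1 was 0.027 (array weights), 0.13 (state as a term), 0.25 (high state) and -0.14 to 0.030 without single libraries. Klf15 was -0.20 to 0.039 without single libraries. The cause of these changes was not tested.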

Other observations

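In the cachectic against the non-cachectic diaphragm under rFibcd1, of 19 calcium-handling genes 4 rose (the channel subunits Cacng1 and Cacnb1, Sln and Fkbp1a) and 0 fell. The share was 21.1%, against 7.14% of all genes tested that were called higher, although the list median was -0.09. Of 24 heat shock and chaperone genes only Hsph1 was called, and it was lower (4.17%, against 1.97% of all genes called lower). Of 18 p53 and cell cycle arrest genes 1, the autophagy regulator Trp53inp2, was lower (5.56%), and 14 were positive. Of 14 myogenic and satellite cell genes 1, the Notch target Heyl, was lower (7.14%). Each of these shares rests on 1 gene.

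Among markers of other cell types, 0 of 8 B cell and plasma cell, 0 of 4 neutrophil, 0 of 7 Schwann cell and 0 of 2 melanocyte markers tested were called by limma at the adjusted threshold, where 9.11% of all genes were. B cell and plasma cell markers summed to between 39.4 and 3450 TPM in the cachectic and between 61.1 and 7751 TPM in the non-cachectic group. Of 9 fibroblast and 6 smooth muscle and pericyte markers 1 each was higher (11.1% and 16.7%, against 7.14% of all genes). Of 7 tendon and 7 endothelial markers 1 each was lower (14.3% each, against 1.97% of all genes).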
